A study of Mus musculus with 12 samples.

Results

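Described here are 10 genes of the FoxO axis in mouse bone marrow-derived macrophages (BMDMs): the transcription factors Foxo1, Foxo3 and Foxo4, and 7 genes linked to FoxO activity and cell quiescence (Irs2, Pik3ip1, Sesn1, Ccng2, Klhl24, Rnf144b and Fam214a). They were taken by symbol from a table of 24421 genes, and each symbol was present. Klhl24, Rnf144b and Fam214a were picked because their counts fell with immune complex, so their response to immune complex is given as a description and not as a test. For the other 7 the rule names no response. Of the 10, 9 passed the filter on low counts, as did 11468 of all genes, and Pik3ip1 did not.

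FoxO proteins are forkhead transcription factors that growth-factor signalling keeps out of the nucleus. Insulin and many other receptors activate PI3-kinase and then Akt, which phosphorylates FoxO and leads to its retention in the cytoplasm. When that signal is low, FoxO enters the nucleus and drives genes that slow the cell cycle, restrain growth, feed back on PI3-kinase signalling and protect against stress. Because FoxO is controlled largely by phosphorylation and location, the level of its mRNA is not a measure of its activity. Fc gamma receptors on macrophages, which bind the IgG of immune complexes, also signal through PI3-kinase.

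The BMDMs came from wild-type C57BL/6 mice and were cultured with M-CSF (100 ng/mL) over 5 days, the medium being renewed on day 3. For 4 hours they received either the BET bromodomain inhibitor I-BET151 (iBET) at 5.0 µM or its solvent (DMSO, given in the labels as 5%), with either ovalbumin alone (Ova) or ovalbumin bound by IgG as an immune complex (IC). Whether the drug came with the stimulus, as in the labels, or before it, as in the study's methods, is uncertain. The 4 groups, DMSO Ova, DMSO IC, iBET Ova and iBET IC, each held 3 libraries of total RNA, 1 from each of mice A, B and C. All cells thus had M-CSF, a growth signal that itself acts through PI3-kinase, and all had ovalbumin. No untreated cells were analysed here.

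Libraries held 7.55 M to 17.4 M counts. In mouse A, the DMSO Ova library had 77.4% of its counts on the ribosomal precursor Rn45s and 1.77 M on other genes, and in the other 11 libraries Rn45s took 1.41% to 7.83%. Calls of the members and of the pathway genes that changed without that library are also given without it. The 8 macrophage markers summed to between 6330 and 8480 CPM (counts scaled to a common library size, TMM-normalized) and none was at 0. Summed markers reached at most 0.337 CPM for lymphocytes, 0.338 CPM for erythroid cells (4 of 5 at 0 in all libraries), 1.55 CPM for dendritic cells and 2.57 CPM for stromal cells. Those of neutrophils and their precursors summed to between 7.7 and 41.2 CPM. In bulk RNA, fewer cells that express a gene and less of its RNA per cell cannot be told apart.

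The promoter sequences are shown because FoxO proteins bind forkhead motifs. The 250 bases before each transcription start that RefSeq gives were taken on GRCm38.p6 for 8 members with 12 start sites. Foxo4 and Klhl24 had no entry. They were searched on both strands for GTAAACA, the core of the FoxO recognition element, and for AAACAA, a shorter forkhead sequence. Matches of the 2 can overlap. GTAAACA was found before none of the 12 start sites, and 3.17% of all 32851 promoters held it. AAACAA was found before 3 start sites, those of Ccng2, Irs2 and 1 of 2 of Sesn1, and 18.3% of all promoters held it. Below, the 30 bases up to the start of Ccng2 (chr5:93267543-93267572, plus strand) and the whole window of Irs2 (chr8:11008930-11009179, minus strand) and of the second Sesn1 start (chr10:41887189-41887438, plus strand) are written 5′ to 3′ along the gene, with AAACAA or its reverse complement TTGTTT in capitals.
Ccng2: gggcgtcgcagactcaAAACAAAAACAAgg
Irs2: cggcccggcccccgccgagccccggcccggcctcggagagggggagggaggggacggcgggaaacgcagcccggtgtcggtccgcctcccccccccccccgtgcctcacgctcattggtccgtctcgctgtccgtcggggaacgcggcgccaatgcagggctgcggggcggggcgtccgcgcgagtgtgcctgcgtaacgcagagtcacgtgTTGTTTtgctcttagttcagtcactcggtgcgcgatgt
Sesn1: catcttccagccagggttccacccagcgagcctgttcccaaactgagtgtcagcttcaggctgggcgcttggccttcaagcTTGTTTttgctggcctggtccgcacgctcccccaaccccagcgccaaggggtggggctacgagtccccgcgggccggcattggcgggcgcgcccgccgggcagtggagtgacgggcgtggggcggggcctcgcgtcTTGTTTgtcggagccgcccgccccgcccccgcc
Ccng2 held 2 such matches, Irs2 1 and the second Sesn1 start 2. The Ccng2 stretch precedes the start that RefSeq gives but lies inside the gene in GENCODE vM21. The window of 250 bases that holds the stretch overlaps an exon and an untranslated part of Ccng2. A match describes these letters and is not evidence of binding.

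Foxo1, Foxo3 and Foxo4 were all transcribed in these macrophages. Levels between genes were compared per length, as CPM per kb of exon (GENCODE vM21). In DMSO Ova, Foxo3 stood at 4.11 ± 0.16 CPM per kb (SD, n = 3), Foxo4 at 4.04 ± 0.86 and Foxo1 at 1.72 ± 0.31. Foxo3 and Foxo4 did not differ beyond their spread there, whereas every Foxo1 library lay below every library of the other two factors. In iBET Ova the order was Foxo3 at 8.11 ± 0.33, Foxo4 at 4.62 ± 0.40 and Foxo1 at 3.91 ± 0.33 CPM per kb, and the ranges of Foxo1 and Foxo4 then overlapped. Of the other members in DMSO Ova, Sesn1 was highest at 9.78 ± 2.34 CPM per kb and Pik3ip1 lowest at 0.28 ± 0.19. Klhl24 had 5.38 ± 0.49, Rnf144b 2.98 ± 0.92, Ccng2 2.46 ± 0.52, Fam214a 0.92 ± 0.03 and Irs2 0.75 ± 0.45 CPM per kb.

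**Figure D1:**
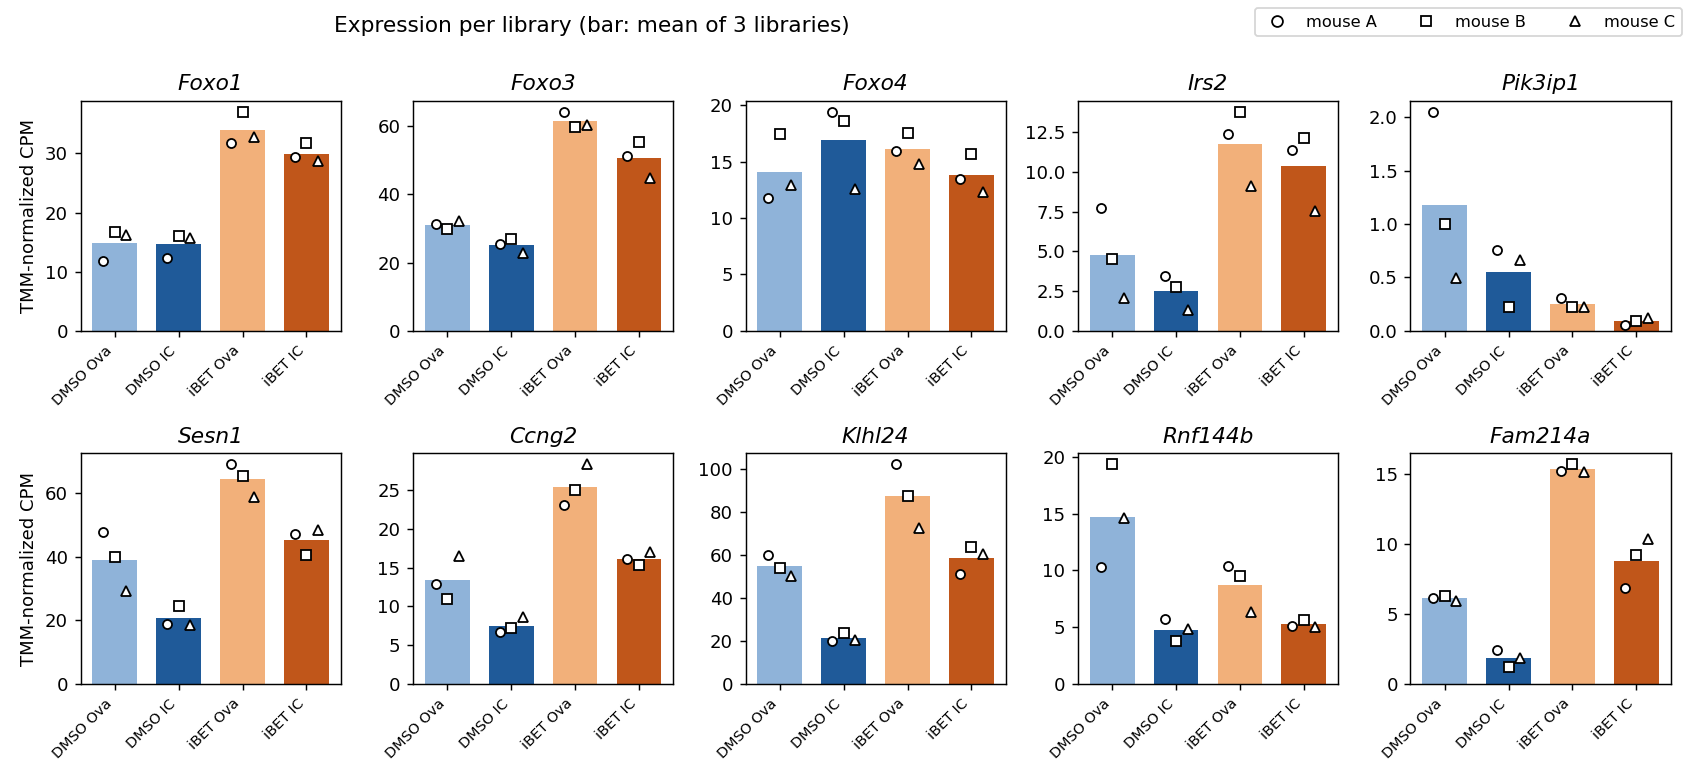
TMM-normalized CPM (vertical axis, from 0, its own scale for each gene) of the 10 genes in DMSO Ova, DMSO IC, iBET Ova and iBET IC, with bars for the mean of 3 libraries and a symbol for each mouse. Foxo1 and Foxo3 stand higher in all 6 iBET libraries than in all 6 DMSO libraries, Foxo4 groups overlap, and Pik3ip1 is lowest in iBET IC.

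Foxo1 and Foxo3 rose about as much with iBET whether the cells had ovalbumin or immune complex, and neither was called changed by immune complex. Foxo1, on chromosome 3 (chr3:52268336-52353221, plus strand, GRCm38), had 11.8, 16.7 and 16.2 CPM in the DMSO Ova libraries of mice A, B and C and 12.4, 16.1 and 15.6 CPM in DMSO IC. It had 31.8, 37.1 and 32.7 CPM in iBET Ova and 29.4, 31.7 and 28.8 CPM in iBET IC. The lowest iBET library was above the highest DMSO library with either stimulus, and the Ova and IC libraries of the DMSO arm overlapped. Among all genes tested, 25.2% were higher with iBET without overlap of the groups in Ova and 26.3% in IC. With iBET, Foxo1 rose by a log2 fold change of 1.13 (SE 0.15, 2.19-fold, edgeR adjusted p 0.000124) in Ova and 1.03 (SE 0.14, 2.04-fold, adjusted p 0.000175) in IC. With IC its log2 fold change was -0.07 (SE 0.15, adjusted p 0.944) in DMSO and -0.18 (SE 0.14, adjusted p 0.848) in iBET.

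Foxo3 (chr10:42181841-42276755, minus strand) had the smallest SE of the 3 factors in each comparison. Its levels were 31.3, 29.8 and 32.2 CPM in DMSO Ova, 25.6, 27.0 and 22.8 in DMSO IC, 64.3, 59.7 and 60.2 in iBET Ova, and 51.2, 55.4 and 44.9 in iBET IC. Every iBET library exceeded every DMSO library, and within each arm every IC library lay below every Ova library. Among all genes tested, 7.47% were lower with IC without overlap in DMSO and 9.34% in iBET. Higher with iBET without overlap were 25.2% in Ova and 26.3% in IC. The log2 fold change with iBET was 0.98 (SE 0.11, 1.97-fold, adjusted p 3.7e-05) in Ova and 1.01 (SE 0.11, 2.01-fold, adjusted p 2.27e-05) in IC. With IC it was -0.31 (SE 0.11, unadjusted p 0.0149, adjusted p 0.248) in DMSO and -0.28 (SE 0.10, unadjusted p 0.0191, adjusted p 0.52) in iBET, lower in 3 of 3 mice in each arm but not called in either.

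Foxo4 (chrX:101254528-101260873, plus strand) was not called in any comparison. It had 11.8, 17.5 and 12.9 CPM in DMSO Ova, 19.4, 18.6 and 12.6 in DMSO IC, 16.0, 17.5 and 14.8 in iBET Ova, and 13.5, 15.7 and 12.3 in iBET IC. All 4 groups overlapped. Its log2 fold change with iBET was 0.16 (SE 0.20, 95% interval -0.27 to 0.58, adjusted p 0.587) in Ova and -0.28 (SE 0.19, 95% interval -0.70 to 0.13, adjusted p 0.272) in IC. The upper bounds of both intervals lay below the lower bounds of Foxo1 (0.81 and 0.72) and of Foxo3 (0.74 and 0.78) in the same comparisons.

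The genes that act on growth-factor and nutrient signalling did not move alike. Irs2, an adaptor that couples the insulin receptor to PI3-kinase, rose with iBET. Sesn1, a sestrin that restrains the growth kinase complex mTORC1, rose with iBET and was called lower with IC in DMSO. Pik3ip1, a membrane protein that inhibits PI3-kinase, had few counts and fewer still with iBET.

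Irs2 (chr8:10984681-11008458, minus strand) had the largest SE of the 9 genes that passed the filter. It had 7.70, 4.52 and 2.07 CPM in DMSO Ova, 3.45, 2.75 and 1.33 in DMSO IC, 12.4, 13.8 and 9.14 in iBET Ova, and 11.4, 12.1 and 7.55 in iBET IC. Mouse C was lowest in every group. In Ova all iBET libraries exceeded all DMSO libraries, and the same held in IC, as for 25.2% and 26.3% of all genes. Irs2 rose with iBET by a log2 fold change of 1.56 (SE 0.41, 2.94-fold, adjusted p 0.0123) in Ova and 2.04 (SE 0.40, 4.11-fold, adjusted p 0.00193) in IC. With IC, Irs2 had -0.66 (SE 0.44, adjusted p 0.67) in DMSO and -0.18 (SE 0.35, adjusted p 0.951) in iBET. The rise in Ova was not called without the DMSO Ova library of C (1.11, adjusted p 0.0579).

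Sesn1 (chr10:41809935-41908424, plus strand) had 47.8, 39.9 and 29.2 CPM in DMSO Ova and 18.8, 24.4 and 18.4 CPM in DMSO IC. The lowest Ova library was above the highest IC library, as for 7.47% of all genes. Its log2 fold change with IC in DMSO was -0.89 (SE 0.17, 1.86-fold lower, adjusted p 0.0305), lower in 3 of 3 mice. In the iBET arm it had 68.9, 65.4 and 58.5 CPM with Ova and 47.2, 40.6 and 48.2 CPM with IC. The groups again did not overlap, as for 9.34% of all genes. The log2 fold change of Sesn1 there was -0.50 (SE 0.16, unadjusted p 0.00926, adjusted p 0.395). With iBET, Sesn1 rose by 0.76 (SE 0.17, 1.69-fold, adjusted p 0.00487) in Ova and 1.15 (SE 0.17, 2.21-fold, adjusted p 0.000269) in IC. In iBET IC it stood at 45.3 ± 4.12 CPM (SD, n = 3), against 38.9 ± 9.33 CPM in DMSO Ova, and these ranges overlapped.

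Pik3ip1 (chr11:3330401-3342971, plus strand) was counted 4, 13 and 6 times in the DMSO Ova libraries, 9, 2 and 7 times in DMSO IC, 4, 2 and 2 times in iBET Ova, and once in each iBET IC library. These were 2.05, 0.997 and 0.497 CPM, 0.757, 0.220 and 0.667 CPM, 0.309, 0.221 and 0.226 CPM, and 0.053, 0.097 and 0.120 CPM. All 6 iBET libraries were thus lower than the lowest DMSO Ova library, but iBET Ova and DMSO IC overlapped. Among all genes tested, 19.9% were lower with iBET without overlap of the groups in Ova and 22.3% in IC. In a fit with no filter on low counts, Pik3ip1 was lower with iBET in IC (log2 fold change -2.61, SE 0.81, adjusted p 0.0265) and not called in Ova (-1.82, SE 0.69, adjusted p 0.0757). Averaged over stimuli it was lower with iBET in that fit (-2.21, SE 0.53, adjusted p 0.00329). A few reads decide these values.

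Ccng2 (chr5:93267257-93276231, plus strand) encodes cyclin G2, an atypical cyclin that holds cells back from division, and it was called in the same comparisons as Sesn1. It had 12.8, 10.9 and 16.5 CPM in DMSO Ova, 6.73, 7.15 and 8.58 in DMSO IC, 23.1, 25.0 and 28.3 in iBET Ova, and 16.1, 15.3 and 17.0 in iBET IC. In each arm all IC libraries lay below all Ova libraries, and with each stimulus the iBET libraries lay above the DMSO libraries. The former held for 7.47% of all genes in DMSO and 9.34% in iBET. The latter held for 25.2% in Ova and 26.3% in IC. Ccng2 fell with IC in DMSO by a log2 fold change of -0.85 (SE 0.18, 1.8-fold lower, adjusted p 0.0382) and had -0.66 (SE 0.16, unadjusted p 0.00159, adjusted p 0.172) in iBET, each lower in 3 of 3 mice. With mouse as a replicate block the second value was -0.65 (SE 0.13) and was called (adjusted p 0.0413). With iBET, Ccng2 rose by 0.92 (SE 0.17, 1.89-fold, adjusted p 0.0015) in Ova and 1.11 (SE 0.17, 2.15-fold, adjusted p 0.00037) in IC.

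Of the 6 members tested for the IC response in DMSO, 2 were called, both lower (Sesn1 and Ccng2). Among all genes tested, 0.488% were called lower and 1.22% in either direction. The median log2 fold change of the 6 was -0.48, against -0.01 over all genes. Both calls sat near the threshold. Without the Rn45s-rich library, Sesn1 had -0.77 (adjusted p 0.0535) and Ccng2 -0.89 (adjusted p 0.0532), and 0 members were called. Over the omission of each of the 12 libraries, the call was lost 6 times for Sesn1 (-1.08 to -0.77, adjusted p 0.013 to 0.151) and 11 times for Ccng2 (-1.01 to -0.63, adjusted p 0.0399 to 0.179). The sign stayed negative in each of these fits. With the 6 libraries of the comparison fitted alone, or without any 1 mouse, 0 were called (adjusted p 0.289 for Sesn1 and 0.301 for Ccng2 in the former).

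**Figure D2:**
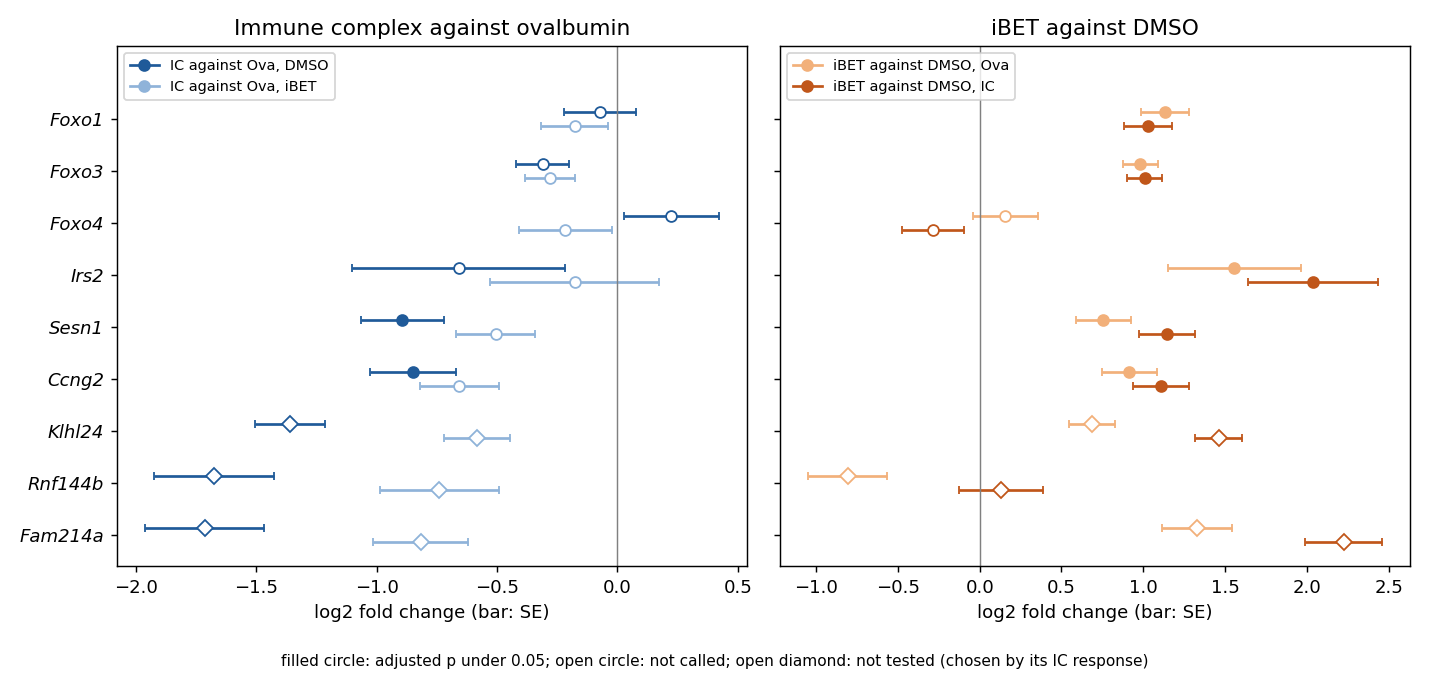
Log2 fold changes with their SE (horizontal axis) for the 9 genes that passed the filter, for IC against Ova in each arm (left) and iBET against DMSO with each stimulus (right). Filled circles are called at an adjusted p under 0.05, open circles are not, and open diamonds mark the 3 genes picked by their IC response, which were not tested. Both comparisons on a side are drawn on 1 scale: Sesn1 and Ccng2 are the filled points left of 0, and Foxo4 lies near 0 on the right.

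In the iBET arm 0 of the same 6 members were called for the IC response, where 0.349% of all genes tested were called by edgeR. Of the 6, 3 (Foxo3, Sesn1 and Ccng2) had an unadjusted p under 0.05, against 7.5% of all genes. DESeq2 without a block also called 0. By edgeR, Ccng2 was called with the replicate block (adjusted p 0.0413), with 1 surrogate variable (0.0364) and with the compared groups alone (0.0467). By DESeq2 with the block it was called too (adjusted p 0.0106). The IC responses of the arms were compared by their difference, the response in iBET minus that in DMSO. It was called for 0 of 6 members and for 0% of all genes, with 2.55% of all genes at an unadjusted p under 0.05. For Sesn1 it was 0.39 (SE 0.24, 95% interval -0.13 to 0.91), for Ccng2 0.19 (SE 0.24, -0.33 to 0.71) and for Irs2 0.48 (SE 0.57, -0.75 to 1.72) on the log2 scale. For Foxo1 the difference was -0.10 (SE 0.20, -0.55 to 0.34) and for Foxo3 0.03 (SE 0.15, -0.30 to 0.36). Each of these 5 intervals holds 0.

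The 3 genes picked for their fall with IC were lower with IC in both arms, with the smaller fall in iBET. Their values with IC chose them, so these are no independent evidence. Klhl24 and Rnf144b encode parts of the ubiquitin system, a Kelch-like adaptor of a cullin ligase and a RING-type ligase.

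Klhl24 (chr16:20097542-20129221, plus strand) had 60.1, 53.9 and 50.3 CPM in DMSO Ova, 19.8, 23.7 and 20.2 in DMSO IC, 102.2, 87.5 and 72.4 in iBET Ova, and 51.1, 63.6 and 60.6 in iBET IC. Its log2 fold change with IC was -1.36 (SE 0.14) in DMSO and -0.58 (SE 0.14) in iBET. In iBET IC its mean of 58.4 ± 6.53 CPM (SD, n = 3) was close to the 54.8 ± 4.94 CPM of DMSO Ova, and the ranges overlapped. With iBET it had 0.69 (SE 0.14) in Ova and 1.46 (SE 0.14) in IC.

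Fam214a (chr9:74952884-75032468, plus strand) had 6.16, 6.29 and 5.89 CPM in DMSO Ova, 2.44, 1.21 and 1.81 in DMSO IC, 15.2, 15.7 and 15.1 in iBET Ova, and 6.83, 9.21 and 10.3 in iBET IC. Its Ova libraries were nearly equal within each arm, and its DMSO IC libraries, of 29, 11 and 19 counts, were the lowest. The log2 fold change with IC was -1.72 (SE 0.25) in DMSO and -0.82 (SE 0.20) in iBET. In iBET IC its mean was 8.78 ± 1.78 CPM (SD, n = 3), against 6.11 ± 0.21 CPM in DMSO Ova, a group that entered the choice of the gene.

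Rnf144b (chr13:47122656-47247991, plus strand) had 10.3, 19.3 and 14.6 CPM in DMSO Ova, 5.72, 3.74 and 4.86 in DMSO IC, 10.4, 9.48 and 6.32 in iBET Ova, and 5.12, 5.62 and 5.03 in iBET IC. It was the picked gene whose level with Ova was lower in iBET, although the DMSO Ova and iBET Ova libraries overlapped at mouse A, and its IC libraries had about the same level in both arms. Its log2 fold change with IC was -1.68 (SE 0.25) in DMSO and -0.74 (SE 0.25) in iBET. With iBET it had -0.81 (SE 0.24) in Ova and 0.13 (SE 0.26) in IC.

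**Figure D3:**
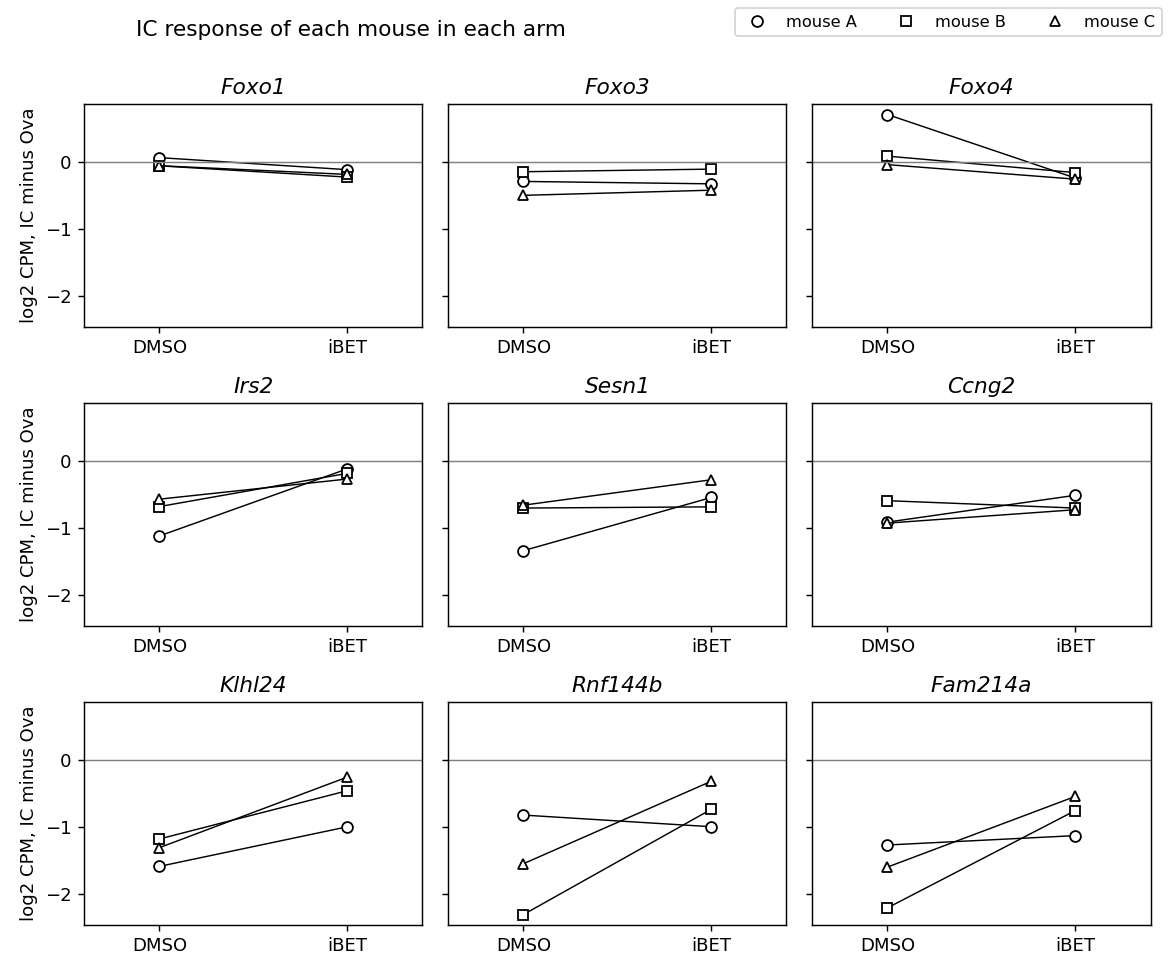
Difference in log2 CPM between the IC and the Ova library of each mouse (vertical axis, the same scale in all panels) in the DMSO and the iBET arm, with a line joining the arms of a mouse. Klhl24 lies closer to 0 in iBET in 3 of 3 mice, whereas mouse A does not move that way for Rnf144b (-0.82 in DMSO, -0.997 in iBET), and Foxo3 lines are nearly flat.

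The difference between the arms, as a description, was 0.78 (SE 0.20) for Klhl24, 0.94 (SE 0.35) for Rnf144b and 0.90 (SE 0.32) for Fam214a on the log2 scale. For Fam214a the IC response moved toward 0 in iBET in each mouse, from -1.27 to -1.13 in mouse A, -2.21 to -0.76 in mouse B and -1.60 to -0.54 in mouse C. No test of these differences was made, since these libraries entered the choice of the genes.

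Most members were higher with iBET. In Ova 5 of the 6 tested were called higher (Foxo1, Foxo3, Irs2, Sesn1 and Ccng2), where 17.1% of all genes tested were called higher and 31.3% in either direction. In IC the same 5 were called higher, where 19% of all genes were and 34.8% were called in either direction. The comparisons use different libraries. The median log2 fold change of the 6 was 0.95 in Ova and 1.07 in IC, against 0.0193 and -0.00366 over all genes. Without the Rn45s-rich library, 5 were called in each. Without mouse B, 2 remained in Ova (Foxo1 and Foxo3), while Ccng2 (0.77, adjusted p 0.0669), Sesn1 (0.77, adjusted p 0.072) and Irs2 (1.54, adjusted p 0.182) were not called. In IC, Irs2 alone was lost without mouse B (1.98, adjusted p 0.0699). Summed macrophage markers were 6330 to 7670 CPM in the DMSO libraries and 7140 to 8480 CPM in the iBET libraries. With iBET averaged over stimuli 3 of the 8 were called higher and 1 lower, beside 26% and 22.6% of all genes. Of 4 neutrophil and precursor markers tested, 0 were called. Of 5 dendritic cell markers, Zbtb46 alone passed the filter, with at most 17 counts in a library. It had 2.35 (SE 0.50), from 0.197 to 0.889 CPM in Ova and 0.387 to 0.977 CPM in IC. At such levels a gene can pass the filter through the groups where it is high, so this is a description. The part of these markers in the values of the members was not tested.

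The iBET effect averaged over Ova and IC is free of the difference that picked the 3 genes only if groups are equally precise. They were not. The DMSO Ova library of mouse A held 1.77 M counts outside Rn45s, and Fam214a summed to 59 counts in DMSO IC against 165 in DMSO Ova. A value in DMSO IC that is low by accident favours picking a gene and raises its average. The averaged tests of the 3 picked genes are thus not fully independent of their choice. All 9 members were tested. Of these, 7 were called higher and 0 lower, where 26% of all genes were called higher, 22.6% lower and 48.6% in either direction. The 7 hold the picked genes Klhl24 and Fam214a, so this count is not fully independent of their choice either. Those of the 7 that were not picked are Foxo1, Foxo3, Irs2, Sesn1 and Ccng2. Pik3ip1, outside these 9, was lower in the fit with no filter, as given above. Irs2 rose most (log2 fold change 1.80, SE 0.28, adjusted p 0.000248), then Fam214a (1.78, SE 0.16), Foxo1 (1.08, SE 0.10, adjusted p 3.61e-06) and Klhl24 (1.07, SE 0.10). Ccng2 (1.01, SE 0.12), Foxo3 (1.00, SE 0.08) and Sesn1 (0.95, SE 0.12) followed, and each of the 7 was higher in 3 of 3 mice. Klhl24 was the most even of them, at 1.06, 1.06 and 1.05 in mice A, B and C. Foxo4 (-0.06, SE 0.14, 95% interval -0.36 to 0.23) and Rnf144b (-0.34, SE 0.17, 95% interval -0.72 to 0.04, adjusted p 0.128) were not called. Without the Rn45s-rich library, Rnf144b had -0.44, given with no test. The groups then also differ in size, so the average draws on the difference by which the gene was picked.

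The wider pathway was described with lists of genes that do not hold the 10 members. Of 22 genes of the PI3-kinase and Akt axis that lies upstream of FoxO, 0 were called with IC in either arm by edgeR. With iBET averaged over stimuli, 11 were called higher and 7 lower, where 26% and 22.6% of all genes were, with a median log2 fold change of 0.17 against 0.00 over all genes. The list held opposite moves within both its activating and its opposing arms. Inppl1, a phosphatase that removes the PI3-kinase product, fell by 1.33 (SE 0.09), whereas Phlpp2, a phosphatase of Akt, rose by 0.76 (SE 0.12). Pik3r1, a regulatory subunit of PI3-kinase, rose by 1.05 (SE 0.07), whereas Pik3r5, a regulatory subunit of the gamma form, fell by 0.84 (SE 0.09). Without the Rn45s-rich library Pik3cd, a catalytic subunit, was called lower with IC in DMSO (-0.74, adjusted p 0.0473, against -0.50, adjusted p 0.358), and Pik3cb (-0.33, adjusted p 0.00168) and Akt1 (-0.22, adjusted p 0.0305) were called lower with iBET averaged.

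Of 14 genes linked to FoxO in cell cycle restraint, 0 were called with IC, and with iBET averaged 6 were higher and 4 lower, beside 26% and 22.6% of all genes. Btg2, an antiproliferative gene, rose by 1.43 (SE 0.19), Klf2, a factor linked to quiescence, by 1.28 (SE 0.14), Cdkn1a, the p21 inhibitor of cyclin-dependent kinases, by 1.06 (SE 0.13) and Gadd45b by 0.77 (SE 0.14). The genes lower were Rbl2, Bcl6, Klf4 and Klf6, by 0.29 to 0.51 on the log2 scale. Of 12 proliferation genes, 0 were higher and 3 lower with iBET, the replication helicase genes Mcm3 (-0.94, SE 0.19), Mcm6 (-0.90, SE 0.15) and Mcm2 (-0.84, SE 0.20), and 0 were called with IC. Among all genes 22.6% were called lower, so a count of 3 in 12 is near the share over all genes. The median log2 fold change of the 12 was -0.70, against 0.00 over all genes, and 1 of the 12 was above 0. Mki67, the usual proliferation marker, had -0.62 (SE 0.38, adjusted p 0.189, named after its values were seen). The part of these genes in the values of the members was not tested.

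Of 13 genes tested in stress defence and autophagy, 10 were higher and 1 lower with iBET averaged, where 26% and 22.6% of all genes were, with a median log2 fold change of 0.45. Ulk1 and Ulk2, kinases that start autophagy, rose by 1.60 (SE 0.11) and 1.17 (SE 0.07), Txnip, which binds thioredoxin and slows glucose uptake, by 1.37 (SE 0.09), and Fbxo32, a ubiquitin ligase known from muscle wasting, fell by 1.26 (SE 0.29). Without the Rn45s-rich library 9 were higher, since Gabarapl1 was not called (0.27, adjusted p 0.0952). With IC in DMSO, Txnip fell by 0.90 (SE 0.13) and Ulk2 by 0.51 (SE 0.10), and Sod2, the mitochondrial superoxide dismutase and also a gene of the inflammatory response, rose by 0.89 (SE 0.09). These were 3 calls in 13, where 1.22% of all genes were called, and Ulk2 was not called without the Rn45s-rich library (-0.51, adjusted p 0.0514). In the iBET arm Txnip (-1.0, SE 0.13) and Sod2 (0.55, SE 0.08) were called again, where 0.349% of all genes were called. Of 5 apoptosis genes tested, Bmf alone was called with IC in DMSO (-1.38, SE 0.26), where 1.22% of all genes were called. With iBET averaged, Pmaip1 (1.36, SE 0.10) and Bcl2l11 (0.42, SE 0.08) were higher, and Tnfsf10 (-2.19, SE 0.40) and Bmf (-0.78, SE 0.18) lower. These were 2 higher and 2 lower of 5, beside 26% and 22.6% of all genes. Tnfsf10 had few counts, from 2.1 to 0.328 CPM in Ova and 1.55 to 0.416 CPM in IC.

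Close relatives of the members split as well. Of 5 tested, 0 were called with IC. With iBET averaged, 2 were called higher and 1 lower, beside 26% and 22.6% of all genes. The sestrins Sesn3 (2.93, SE 0.25) and Sesn2 (1.55, SE 0.13) rose with iBET averaged, more than Sesn1 in size, though these sizes were not compared by a test. Rnf144a, the relative of Rnf144b, fell by 1.31 (SE 0.33), from 1.03 to 0.718 CPM in Ova and 1.24 to 0.316 CPM in IC. Ccng1, the relative of Ccng2, had 0.11 (SE 0.09, adjusted p 0.337), and Fam214b, that of Fam214a, -0.13 (SE 0.09, adjusted p 0.237). Sesn1 is also known as a responder to p53. Of 15 p53-linked genes tested, 0 were called with IC, and 5 were higher and 4 lower with iBET averaged, beside 26% and 22.6% of all genes. Those with the largest changes were Sesn2, Btg2, Pmaip1 and Trp53inp1 (1.34, SE 0.14), of which the first 3 are in other lists too. The 4 lower were Mdm2 (-1.33, SE 0.12), a target and inhibitor of p53, Aen (-0.55, SE 0.21), Plk2 (-0.54, SE 0.09) and Trp53 itself (-0.42, SE 0.15). Without the Rn45s-rich library Aen was not called (-0.44, adjusted p 0.0501).

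**Figure D4:**
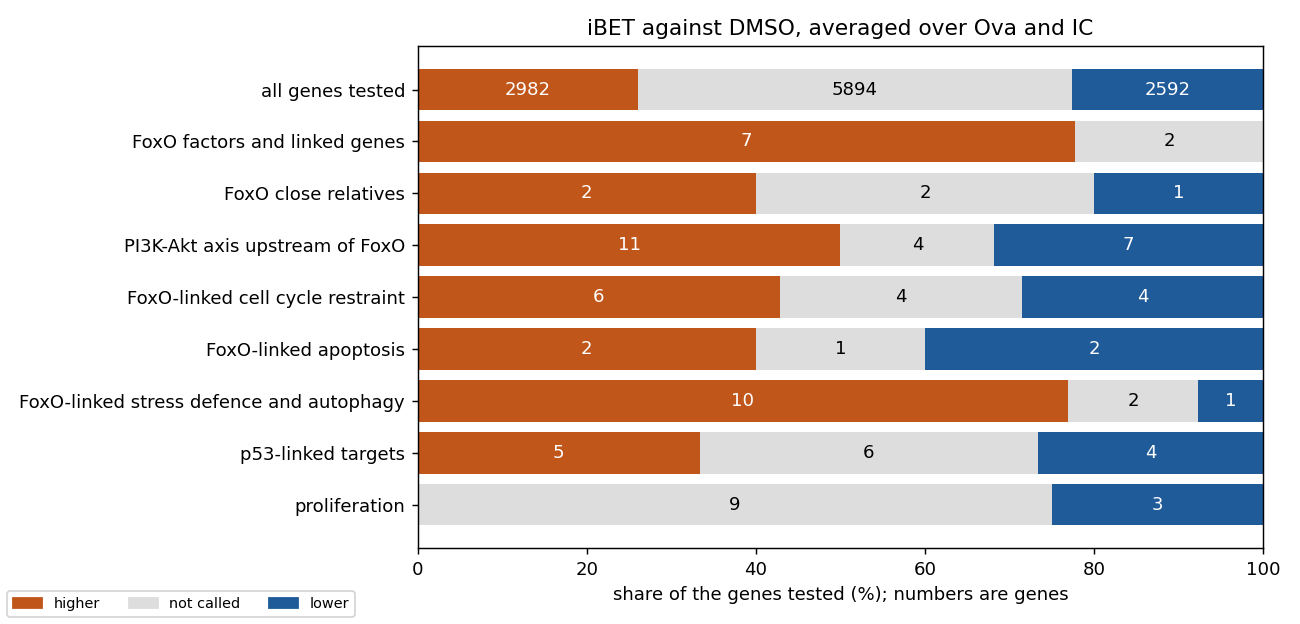
Share of tested genes (horizontal axis, percent) called higher, not called or called lower with iBET averaged over Ova and IC, for all genes, the 9 tested FoxO factors and linked genes, and 7 lists of pathway genes. The 9 hold the 3 genes picked by their fall with IC, whose averaged tests are not fully independent of that choice. Numbers in the bars are genes, and most bars hold fewer than 25. The bars of the FoxO set and of stress defence and autophagy lie mostly on the higher side, and that of proliferation holds no gene on it.

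Gene models overlap 5 of the members in GENCODE vM21. An opposite-strand gene overlaps Foxo1, Irs2, Pik3ip1 and Rnf144b, and a same-strand gene overlaps Foxo1 and Sesn1. The use of strand in counting was not stated, so reads of such neighbours may be counted with them or withheld from them.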

How the data were processed

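Total RNA from BMDMs was made into libraries with a SMARTer pico-input kit. The authors trimmed reads with Trim Galore, aligned them to mm10 with HISAT2 and assigned them to genes with featureCounts. Annotation, strand setting and treatment of multiply aligned reads are not given in the sources used here. The authors deposited counts per gene symbol, which were used here, and a normalized signal, which equals those counts divided by DESeq2 size factors (largest relative gap 4.89e-15) and served only an alternative with a pseudocount of 1. All 12 columns of each table were mapped to samples by their number.

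Counts were fitted in edgeR 4.0.16 (R 4.3.3) with filterByExpr (minimum count 10), TMM factors and a robust quasi-likelihood model with 1 term per group. Two-sided p-values were adjusted for the 11468 genes tested (Benjamini-Hochberg). A gene was called under 0.05. SE is the absolute log2 fold change over the root of the F statistic. Values per mouse use a prior count of 2. The scripts were tested on simulated data.

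All 10 members are named, with up to 4 called genes of largest change per list and the 2 genes most correlated with each member. Some genes that this rule selects are left out. The members and lists were chosen with earlier results of these data known. Mouse comes from the labels and pairs the libraries. The main model leaves this pairing out, and the replicate block takes it in. Deviations from group means correlated at a median of 0.263 (-0.0725 to 0.542) over 18 pairs of the same mouse and -0.134 (-0.499 to 0.271) over 36 pairs of different mice. Alternatives were DESeq2 1.42.0, its size factors, other filters, the replicate block, 1 surrogate variable (sva 3.50.0), limma 3.58.1 on the normalized signal, the compared groups alone, removal of Rn45s, and omission of each library and each mouse. The list genes, and Pik3ip1 with no filter, were also fitted without the Rn45s-rich library, chosen after seeing the data. Promoters come from RefSeq on GRCm38.p6 and gene positions from GENCODE vM21 on GRCm38.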

Additional observations from a re-analysis of the deposited data

Results flagged for a closer look

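Foxo4 had values of opposite sign with iBET under the different stimuli. Its log2 fold change was 0.16 in Ova, higher in 3 of 3 mice, and -0.28 in IC, lower in 3 of 3 mice. Neither was called. The difference between these effects was -0.44 (SE 0.28, edgeR adjusted p 1, unadjusted p 0.134, 95% interval -1.04 to 0.16). Values per mouse were 0.43, 0.00 and 0.19 in Ova and -0.52, -0.24 and -0.03 in IC for mice A, B and C. Mouse A, whose DMSO Ova library has 77.4% of its counts on Rn45s and 23 counts of Foxo4, has the largest value of each. Without that library the values were 0.03 and -0.30.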

How the results depend on the processing

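The counts below leave out Pik3ip1. With no filter, edgeR called it lower with iBET in IC (adjusted p 0.0265) and averaged (adjusted p 0.00329). For the members of the main fit, calls with iBET numbered 5 in Ova, 5 in IC and 7 averaged (the picked genes Klhl24 and Fam214a among them). This number stayed the same in each setting that kept all libraries. Without 1 library or mouse it was 2 to 5 in Ova, 4 to 5 in IC and 7 to 8 averaged (the eighth, Rnf144b, in a fit whose unbalanced groups make its average depend on the difference by which it was picked). With IC in DMSO it was 0 to 1 without a library or mouse and 0 with the compared groups alone, against 2. With IC in iBET it was 1 with the replicate block in edgeR, the block in DESeq2, 1 surrogate variable, or the compared groups alone (Ccng2 each time), against 0. The difference between arms gave 0 members in each setting. The replicate block changed no other call of a member. The cause of these changes was not tested, beyond that fewer libraries were fitted.

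Among all genes, the call count with IC in DMSO (140) was 268 in DESeq2, 315 with the replicate block, 427 with the block in DESeq2, 504 with 1 surrogate variable, 5 with the compared groups alone, and 0 to 159 without a library or mouse. With IC in iBET (40) it was 113, 85, 177, 130, 99 and 0 to 305 in the same order. With iBET it was 1310 to 3899 in Ova, 1769 to 4469 in IC and 3529 to 5614 averaged without a library or mouse. The difference between arms gave 4 genes in DESeq2, 6 with the block in DESeq2 and 0 to 1 without a library or mouse.

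Some small changes reversed sign when 1 library or mouse was omitted. Over those fits, Foxo1 with IC in DMSO ranged from -0.19 to 0.033 (0.0045 without DMSO Ova of mouse B, 0.033 without DMSO IC of mouse A) and Foxo4 with iBET averaged from -0.15 to 0.039 (the latter without DMSO Ova of mouse B). The difference between arms ranged from -0.20 to 0.022 for Foxo1 (the latter without DMSO Ova of mouse A), -0.028 to 0.36 for Ccng2 (the former without DMSO Ova of mouse C), and -0.041 to 0.10 for Foxo3 (-0.0018 without DMSO Ova of mouse C, -0.036 without DMSO IC of mouse C, -0.041 without iBET IC of mouse B, -0.0035 without mouse C). Low counts limit Pik3ip1, Fam214a and Irs2 most.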

Other observations

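Genes whose log2 CPM followed each member closely over the 12 libraries are given as a description, among 9419 genes that averaged 50 counts or more, and the libraries share mice, groups and depth. They were Dok4 (Pearson's r 0.991) and Rnf10 (0.989) for Foxo1, Sin3a (0.99) and Ralgps1 (0.987) for Foxo3, and Eif4a2 (0.849) and Ssbp4 (0.82) for Foxo4. For Irs2 they were Mpp5 (0.976) and Kif13b (0.976), for Sesn1 Idh1 (0.973) and Crtc1 (0.971), and for Ccng2 Usp11 (0.962). For Klhl24 they were Zcchc24 (0.97) and Numbl (0.963), for Fam214a Tnrc6b (0.966) and Add3 (0.963), and for Rnf144b Cebpg (0.91) and St8sia4 (0.874). Foxo1 and Foxo3 followed each other at 0.927 over the 12 libraries and at -0.02 in deviations from group means.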
